A study of Homo sapiens with 6 samples.

Results

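The 78 genes described here encode the proteins of the cytosolic ribosome. They were chosen by gene name, as RPL or RPS followed by a number with or without the letter A, together with RPLP0, RPLP1, RPLP2, RPSA, RPS4X and RPS27L, from the 48644 genes of the expression table. Of the 78, 46 belong to the large subunit and 32 to the small subunit. They lie on 21 chromosomes, 12 of them on chromosome 19.

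Ribosomal proteins bind ribosomal RNA in the nucleolus and are exported as part of the preassembled subunits, so the cell needs them in balanced amounts. Their mRNAs are short, abundant and long-lived, and most begin with a run of C and T bases, the 5′ terminal oligopyrimidine (TOP) motif, through which mTORC1 and the RNA-binding protein LARP1 set their translation. In squamous carcinoma, as in other dividing cells, the supply of ribosomes is tied to growth, and the transcription factor MYC raises the genes that make and assemble them.

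The libraries were made from poly(A) RNA of KYSE70 cells, a long-established line from a human squamous carcinoma of the esophagus, to ask which genes respond when SOX2 or TP63 is suppressed. Both are transcription factors of squamous epithelium, and each was targeted by a short hairpin RNA in a pLKO-Tet-On vector, which the cells carried stably and which doxycycline switches on. The 6 libraries fell into 4 groups: shSOX2 cells at day 4 (2 libraries) and day 0 (1 library), and shTP63 cells at day 4 (2 libraries) and day 0 (1 library). Day 4 cells had received 50 ng/ml doxycycline for 4 days, and day 0 cells had received none.

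All 6 libraries came from cells that carried a hairpin vector, and no hairpin-free cells with doxycycline were analysed here, so doxycycline itself and the loss of the target cannot be told apart. Each title gives a number, 1 or 2, that could mark a replicate or a different hairpin, and both day 0 libraries carry the number 2. Nothing states that the day 4 libraries came from separate cultures, so each p-value reflects only how far these libraries spread, which may be technical. Values are log2(RPKM + 1), where RPKM is a read count scaled to transcript length and to the library's total, and a log2 change on this scale understates the change of low genes. In bulk RNA, fewer cells that express a gene and less of its RNA per cell cannot be told apart.

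The uninduced shTP63 library stood apart from the rest before any comparison. It had 16167 genes above 0, against 21530 to 23509 in the other libraries. Every shTP63 response below is measured against it alone, and for the members named in that line a change that turns sign against the uninduced shSOX2 library is also given against it. Read depth is unknown, since the values hold no counts. TP63 had 2.11 and 2.27 in the induced shTP63 libraries, against 3.99 in the uninduced one, and SOX2 had 4.67 and 5.65 in the induced shSOX2 libraries, against 6.25 in the uninduced one. Neither change from day 0 passed limma's test, with an adjusted p of 0.131 for TP63 (−1.81 ± 0.32, SE) and 0.469 for SOX2 (−1.10 ± 0.45, SE). Between the induced lines, shTP63 minus shSOX2, TP63 passed (−1.73 ± 0.26, SE; limma adjusted p = 0.0467). SOX2 did not pass there (0.32 ± 0.37, SE; limma adjusted p = 0.621). All 12 squamous markers had a mean of at least 1 RPKM, with a summed level of 753 to 2656 RPKM in the 4 induced libraries and 2087 to 3289 RPKM in the uninduced ones. Of 5 leukocyte markers, 3 endothelial markers present in the table and 5 fibroblast markers, 0, 0 and 1 reached that level. The sum over the fibroblast markers was 1.82 to 5.40 RPKM, and that over the leukocyte markers 0 to 0.38 RPKM. Of 4 markers of simple epithelium, 3 had a mean of at least 1 RPKM, and their list summed to 161 to 353 RPKM.

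The TOP motif, where present, lies at the start of a transcript. The windows printed here are a selection of members, most of which are named in the comparisons. Each window holds 10 bases before and 20 bases from the RefSeq start of the gene on GRCh38.p14, on the strand of the gene, and capitals mark a C at the start with the run of C or T that follows it, where at least 4 such bases follow.
RPLP1, chr15:69452808-69452837, + strand: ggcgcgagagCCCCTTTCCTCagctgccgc
RPS18, chr6:33272065-33272094, + strand: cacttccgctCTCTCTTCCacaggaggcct
RPS27, chr1:153990752-153990781, + strand: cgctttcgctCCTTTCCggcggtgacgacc
RPL31, chr2:101002279-101002308, + strand: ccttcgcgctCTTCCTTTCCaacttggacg
RPL26, chr17:8383174-8383203, − strand: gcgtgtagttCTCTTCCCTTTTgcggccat
RPS21, chr20:62387093-62387122, + strand: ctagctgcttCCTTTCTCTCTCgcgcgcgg
RPL32, chr3:12841546-12841575, − strand: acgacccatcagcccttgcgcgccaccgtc
RPS29, chr14:49598691-49598720, − strand: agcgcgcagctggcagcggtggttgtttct
RPS4X, chrX:72277229-72277258, − strand: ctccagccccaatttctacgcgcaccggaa
RPS26, chr12:56041908-56041937, + strand: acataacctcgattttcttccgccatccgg
RPS27L, chr15:63157458-63157487, − strand: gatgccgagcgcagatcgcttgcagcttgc

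Of the 63 members with a promoter in the RefSeq table, 42 (66.7%) had such a run at the annotated start, against 1104 of 27305 promoters in the table (4.04%). When the run could begin anywhere within 5 bases of the start, 50 members (79.4%) had it, against 21.1% of all promoters. The motif was searched on the transcribed strand only, and the absence of a run at one annotated start says only that these letters are not there. The members printed include both kinds. RPS27, RPL31 and RPL26 have a run, while RPL32, RPS29, RPS4X, RPS26 and RPS27L have none at the annotated start.

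The members were among the most abundant transcripts in every library. They made up 7.82% and 6.81% of the summed RPKM in the induced shSOX2 libraries, against 7.44% in the uninduced one. The share in the shTP63 line was 10.5% and 7.99% after induction, against 8.51% before. In the induced shTP63 libraries numbered 1 and 2, 37 and 25 members stood among the 100 highest genes, and in the other 4 libraries 23 to 32 did. The 2 induced libraries of a line thus differed in this share by more than either line's mean differed from its day 0 library.

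The mean level of the members, taken over 6 libraries, ran from 0.28 to 9.64, with 46 members at a mean of at least 100 RPKM. Among the highest was RPL19, a protein of the large subunit, at 9.64 ± 0.46 (SD, n = 6). RPLP1, one of the acidic proteins of the stalk that recruits elongation factors, had 9.49 ± 0.44 (SD, n = 6). These overlapped in range, and their order by mean is within their spread. RPL19 held rank 12 among all genes in both induced shTP63 libraries and ranks 23 and 18 in the induced shSOX2 libraries.

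At the low end, RPL36A stood at 0.92 and 0.75 in the libraries numbered 1 of induced shSOX2 and induced shTP63 and was listed at 0 in the other 4 libraries. It was the single member that failed the filter of a mean of at least 1 RPKM, so 77 members (45 large and 32 small) entered the tests. RPS27L, a paralog of RPS27 known as a target of p53, followed at 1.50 ± 0.28 (SD, n = 6), then RPS15A at 2.44 ± 0.36 (SD, n = 6) and RPL39, a short protein of the exit tunnel, at 2.82 ± 0.36 (SD, n = 6). RPS27 itself had a mean of 6.60. In the 5 libraries other than uninduced shTP63 it lay between 6.16 and 7.62.

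**Figure D1:**
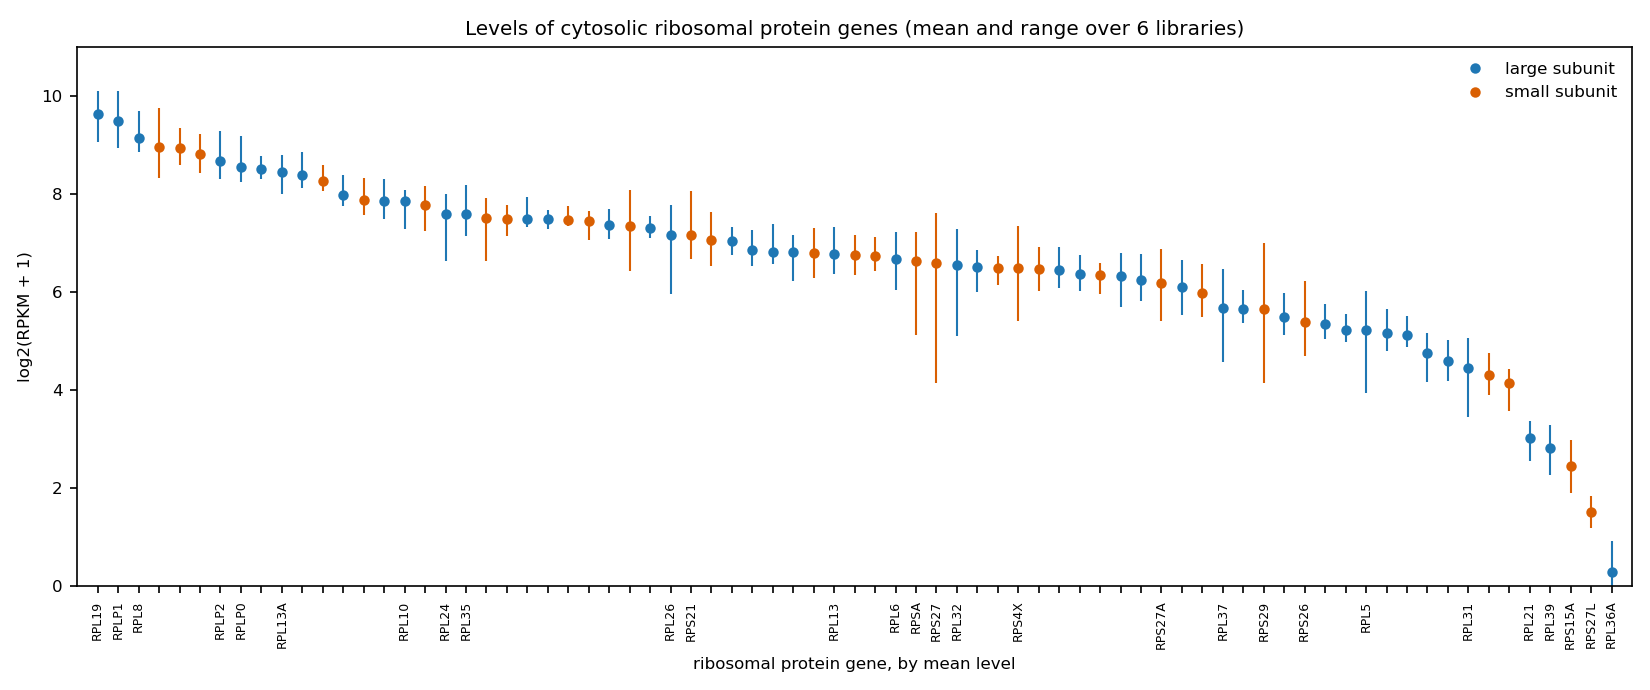
Mean log2(RPKM + 1) of 75 members over 6 libraries (points) with the lowest and highest library (lines), ordered by mean level and coloured by subunit. The members named in the comparisons are labelled; RPL19 and RPLP1 are near the top, RPS27L and RPL36A at the bottom, and the longest lines belong to RPS27 and RPS29.

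The plot of levels shows both subunits spread over the whole range. The median level of large-subunit members minus that of small-subunit members was −0.24 and −0.01 in the induced shSOX2 libraries, against −0.37 in the uninduced one. It was −0.01 and −0.17 in induced shTP63, against 0.11 in uninduced shTP63. These values changed sign between libraries, and each is small beside the SD of 1.54 to 1.79 among members within a library.

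Across the 77 tested members, the mean level had a Pearson correlation of 0.65 with the GC content of the transcript (Spearman 0.69) and of −0.04 with its log2 length. All members share the same 6 libraries, so this describes the libraries and carries no p. With the number of processed pseudogenes listed under a member's name the correlation was −0.36. The table held 471 such pseudogenes, of 72 members, and 65 of them were above 0 in the uninduced shTP63 library, against 119 to 161 in the others. RPL21, with a mean level of 3.02, had 22 of them, the most of any member.

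Some pseudogenes stood near their parent genes in level. RPL41P1 had a mean level of 8.37, against 7.86 for RPL41, which encodes the shortest ribosomal protein. RPL7AP6 and RPL13AP5 had 7.15 and 7.12, against 7.98 for RPL7A and 8.45 for RPL13A. Reads of near-identical copies can be assigned to either, so the levels of these members, and of low ones such as RPL36A, RPL39 and RPL21, are uncertain. Summed over a library, the pseudogenes held 1265 to 1924 RPKM and the members 11327 to 17412 RPKM.

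Most members varied little between libraries. The median SD over the 6 libraries was 0.33 for the members and 0.37 for all 10536 tested genes. Only RPS27 and RPS29 had an SD above 1, at 1.30 and 1.20.

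After subtracting each library's median over the members, several members departed in 1 or 2 libraries by at least 1 log2 unit from their own median over the 6 libraries. In the uninduced shTP63 library, RPS27, RPL32, RPS29 and RPL37 were low and RPLP2 was high. In the induced shTP63 library numbered 2, RPSA, RPS29 and RPL26 were low. RPL5 was low in the induced shSOX2 library numbered 1. The induced shSOX2 library numbered 2 and the induced shTP63 library numbered 1 had 0 such members.

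**Figure D2:**
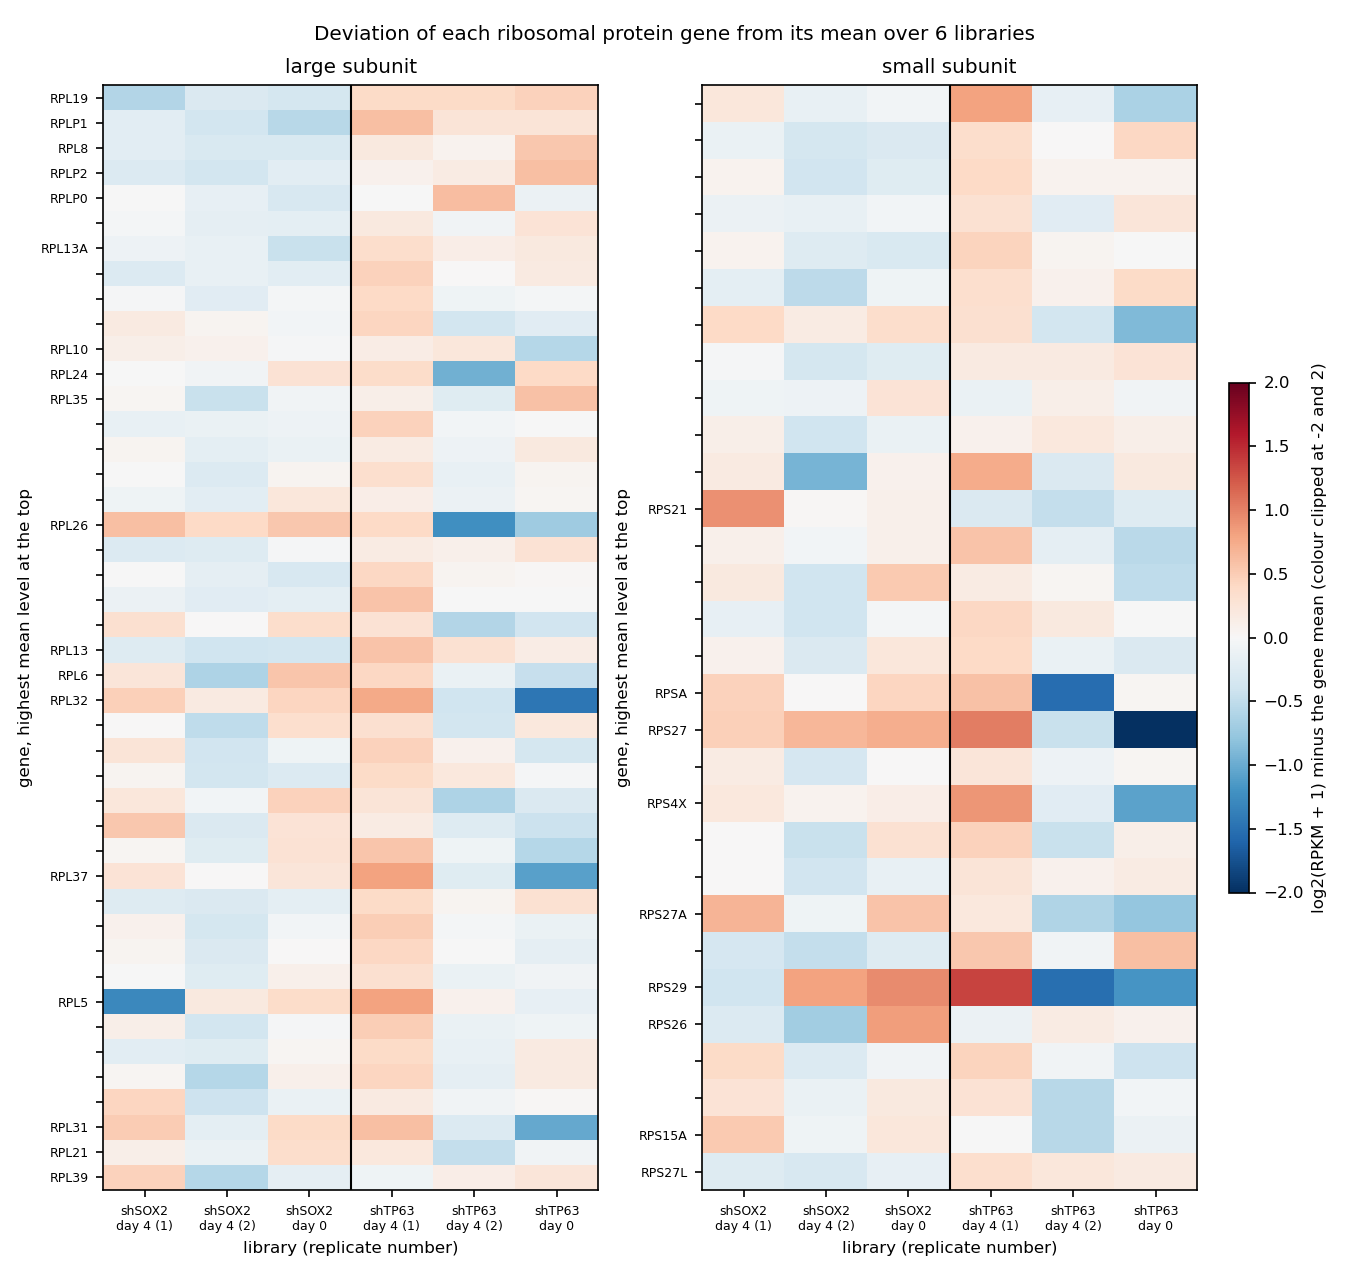
Each member's log2(RPKM + 1) in each library minus its own mean over 6 libraries, for 74 members by subunit, with the highest at the top, those named in the comparisons labelled and colours clipped at −2 and 2. The induced shTP63 library numbered 1 is above the mean for most members, and RPS27, RPL32 and RPL37 are low in uninduced shTP63.

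The heatmap of deviations shows columns that move as a whole. The median level of the 77 members was 6.91 and 6.59 in the induced shSOX2 libraries, against 7.01 in the uninduced one, and 7.27 and 6.64 in the induced shTP63 libraries, against 6.64 in the uninduced one. In the induced shSOX2 pair, 69 of 77 members were higher in the library numbered 1 (background over all tested genes 53.8%), by a median of 0.26. In the induced shTP63 pair, 67 of 77 were higher in the library numbered 1 (background 49.3%), by a median of 0.48. The induced libraries of 1 line therefore differed from each other in the members as a group, and this spread sets what the comparisons can resolve.

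In the shSOX2 line, no member passed the adjusted test. With limma and the Benjamini-Hochberg adjustment over all genes, 0 of 77 members passed, as did 0 of 10536 genes (background 0%). At an unadjusted p under 0.05, 1 member, RPS26, was counted (background 10.4%). The median log2 change was −0.09 for the 45 large-subunit members and −0.09 for the 32 small-subunit members, against −0.05 for all genes. It was 0.06 in the induced library numbered 1 and −0.23 in that numbered 2, so the members' median lay on either side of 0. Both induced libraries were below day 0 for 29 members (background 40.2%) and above it for 9 (background 33.3%). Both were at least 2-fold below for 1 member (background 0.987%) and at least 2-fold above for 0 (background 2.48%).

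RPS26, a small-subunit protein that lies beside the mRNA at the exit channel, had the most negative change. It had 5.11 and 4.69 in the induced shSOX2 libraries, against 6.22 in the uninduced one, a difference of −1.32 ± 0.37 (SE; 95% confidence interval −2.18 to −0.46; limma adjusted p = 0.373). Both induced libraries were at least 2-fold below day 0, and they lay closer to each other than to it. The shTP63 libraries held 5.27 and 5.55 after induction, against 5.48 before. Set against that uninduced shTP63 library, the change of RPS26 in the shSOX2 line was −0.58.

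RPL5, which with RPL11 and 5S ribosomal RNA binds MDM2, had 3.93 and 5.41 in the induced shSOX2 libraries, against 5.58 in the uninduced one. One induced library was far below and the other close to day 0, and the change was −0.91 ± 0.62 (SE; limma adjusted p = 0.619). RPL11 had 6.52 and 6.00, against 6.85. RPS29, a zinc-binding protein of the small subunit, had 5.24 and 6.44 in the induced shSOX2 libraries, against 6.59 in the uninduced one (−0.74 ± 1.03, SE). RPL6 had 6.91 and 6.04, against 7.22, in the same groups. The SE of RPS29 was the widest of the 77 members, and its 2 induced libraries were over 1 log2 unit apart. Against the uninduced shTP63 library the sign turned for RPS29 (1.38) and RPL6 (0.27).

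Among the highest values in the shSOX2 line were those of abundant members. RPL13A had 8.35 and 8.30 in the induced libraries, against 8.01 in the uninduced one (0.32). RPLP1 had 9.28 and 9.12, against 8.94 (0.26), and RPLP0, the stalk protein to which RPLP1 and RPLP2 bind, had 8.55 and 8.39, against 8.24 (0.23). None of these passed. The sign of RPL13A and RPLP1 turned when the uninduced shTP63 library served as the control, with −0.32 and −0.55.

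In the shTP63 line, no member passed limma's adjusted test either (0 of 77; background 0.019%, 2 of 10536 genes), and 6 members had an unadjusted p under 0.05 (background 14.6%). The median log2 change was 0.17 for large-subunit members and 0.05 for small-subunit members, against 0.00 for all genes. In the induced library numbered 1 the members' median was 0.36 above day 0, and in that numbered 2 it was −0.06. Both induced libraries were above day 0 for 27 members (background 37.9%) and below it for 16 (background 38.5%). Both were at least 2-fold above for 2 members, RPS27 and RPL32 (background 3.05%), and at least 2-fold below for 0 (background 2.82%). The members' changes were spread with an SD of 0.54, close to the 0.63 of all genes, whereas in the shSOX2 line they were spread with an SD of 0.28, against 0.54 for all genes.

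RPS27, a zinc-binding protein of the small subunit, had the highest value of any member. It had 7.62 and 6.16 in the induced shTP63 libraries, against 4.14 in the uninduced one, and the groups did not overlap. The difference was 2.75 ± 0.57 (SE; limma adjusted p = 0.137). In the shSOX2 line it had 7.07 and 7.26 after induction, against 7.33 before. Of the 6 libraries, only uninduced shTP63 was low, and against the uninduced shSOX2 library the shTP63 change of RPS27 was −0.44. Its paralog RPS27L had 1.84 and 1.72 in the induced shTP63 libraries, against 1.69 in the uninduced one (0.09 ± 0.28, SE).

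RPL32, like RPS27, was highest in the induced shTP63 library numbered 1 and lowest in uninduced shTP63. It had 7.29 and 6.14 in the induced shTP63 libraries, against 5.09 in the uninduced one (1.62 ± 0.49, SE; limma adjusted p = 0.217), and −0.25 against the uninduced shSOX2 library. RPS4X, the X-linked copy of a small-subunit protein, had 7.35 and 6.25, against 5.40 (1.40), and 0.19 against the other control. RPL37, a zinc-binding protein of the large subunit, had 6.46 and 5.43, against 4.58 (1.37), and 0.043 against the other control. For all 4 members the uninduced shTP63 library was the lowest of the 6.

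RPL31, a protein at the rim of the exit tunnel, had 5.05 and 4.19 in the induced shTP63 libraries, against 3.44 in the uninduced one (1.19 ± 0.48, SE; limma adjusted p = 0.32), and −0.21 against the uninduced shSOX2 library. RPL10, which joins the large subunit late in its assembly, had 8.01 and 8.09, against 7.29 (0.76 ± 0.30, SE; limma adjusted p = 0.309). Its 2 induced libraries were close together. The shSOX2 libraries of RPL10 held 7.97 and 7.94 after induction and 7.83 before, so uninduced shTP63 was again the lowest of the 6. RPS29 had 6.99 and 4.13 in the induced shTP63 libraries, against 4.46 in the uninduced one (1.10 ± 1.03, SE), and −1.03 against the uninduced shSOX2 library. One induced library of RPS29 was the highest of the 6 and the other the lowest.

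The lowest values in the shTP63 line were smaller in size. RPL24 had 7.96 and 6.64 in the induced libraries, against 8.01 in the uninduced one (−0.71 ± 0.52, SE; limma adjusted p = 0.568), and RPL35 had 7.71 and 7.35, against 8.18 (−0.65). RPLP2, the other acidic stalk protein, had 8.77 and 8.85, against 9.28 (−0.47), and RPL8 had 9.35 and 9.21, against 9.69 (−0.40). RPLP1 and RPLP0 did not share the side of RPLP2. RPLP1 had 10.09 and 9.75, against 9.75, and RPLP0 had 8.55 and 9.17, against 8.43, in the same groups. Against the uninduced shSOX2 library the sign turned for RPL35 (0.0061), RPLP2 (0.34) and RPL8 (0.43).

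**Figure D3:**
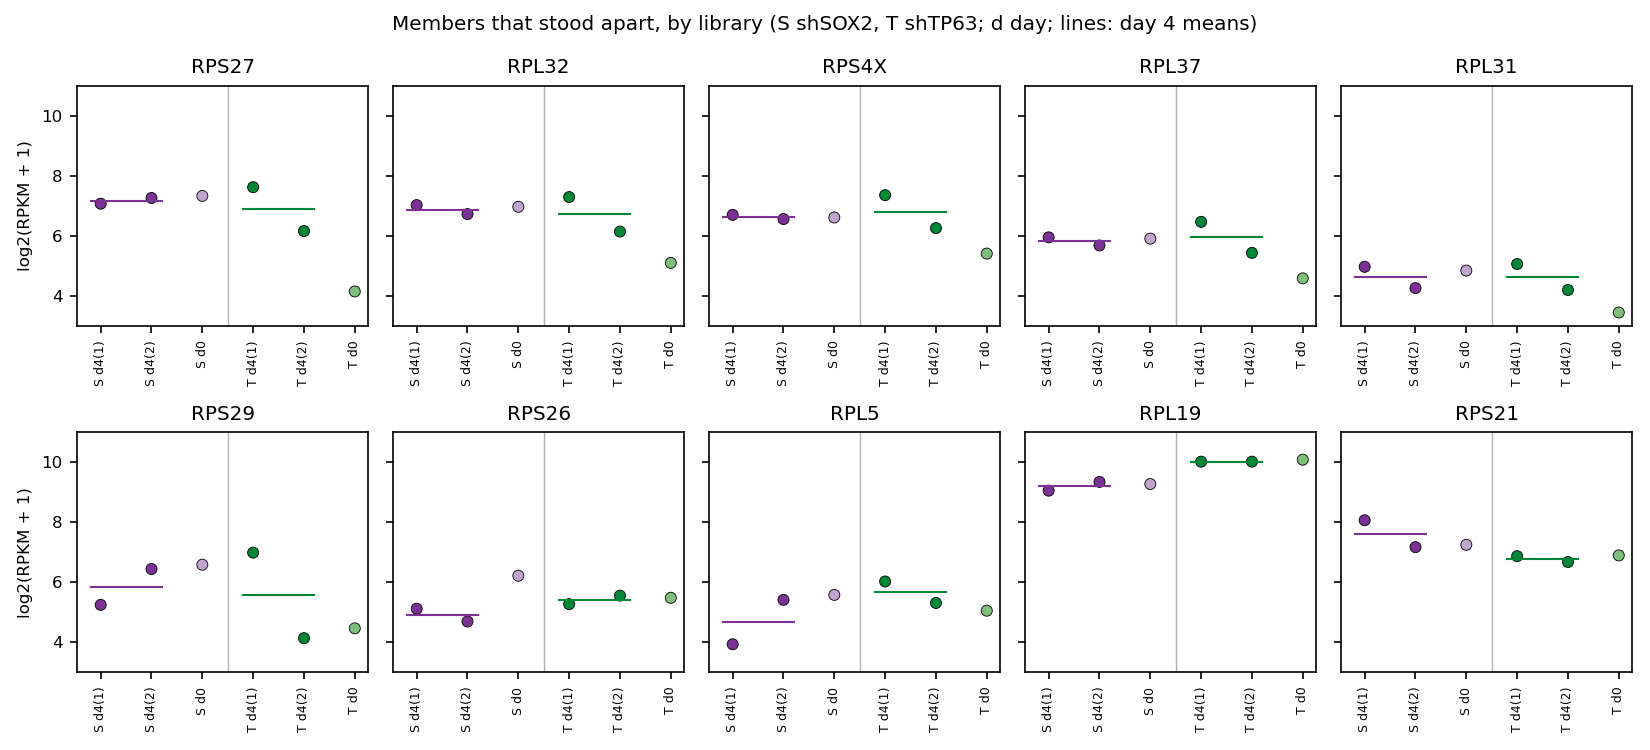
log2(RPKM + 1) by library for 10 members, with S for shSOX2, T for shTP63, d for day and the library number in parentheses, and lines at the mean of the 2 induced libraries. RPS27, RPL32, RPS4X, RPL37 and RPL31 are lowest in uninduced shTP63, RPS26 is highest in uninduced shSOX2, and RPL19 is higher in all 3 shTP63 libraries.

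The plot of single members by library shows that the uninduced libraries differed from each other. Between these 2 libraries, 1 per line, there is no replicate check. The uninduced shTP63 library was at least 2-fold lower than the uninduced shSOX2 library for 11 of 77 members, or 14.3% (background 2.64%), and at least 2-fold higher for 0 (background 1.98%). The 11 were RPS27, RPS29, RPL32, RPL31, RPS27A, RPL37, RPL26, RPS25, RPS4X, RPS13 and RPL6. RPS27 stood 3.19 log2 units lower, with 4.14 in uninduced shTP63 and 7.33 in uninduced shSOX2. The members correlated at 0.91 between these libraries and all tested genes at 0.94, whereas between the induced shSOX2 libraries the members correlated at 0.97.

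The 11 low members, 5 of the large and 6 of the small subunit, had a median transcript GC of 48.7%, against 51.4% for the other 66. Over the 77 members the difference between the uninduced libraries had a correlation of 0.50 with GC, and over 8444 genes with a GC value it was −0.02. Of the 10 low members with a promoter in the table, 5 had a C and T run at the start, against 36 of 52 others. After adjustment for GC, which was chosen after seeing the data, the change of RPS27 in the shTP63 line was 2.69 and that of RPL32 was 1.55. For the induced shTP63 libraries numbered 1 and 2, the change correlated with GC at 0.0074 and 0.029 over all 8444 genes. Over the members the correlations were −0.37 and −0.17. An adjustment that follows all genes can move the members little, so these values do not show what GC contributes among the members. GC and the number of genes above 0 moved with these members, and their part in the values was not tested.

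**Figure D4:**
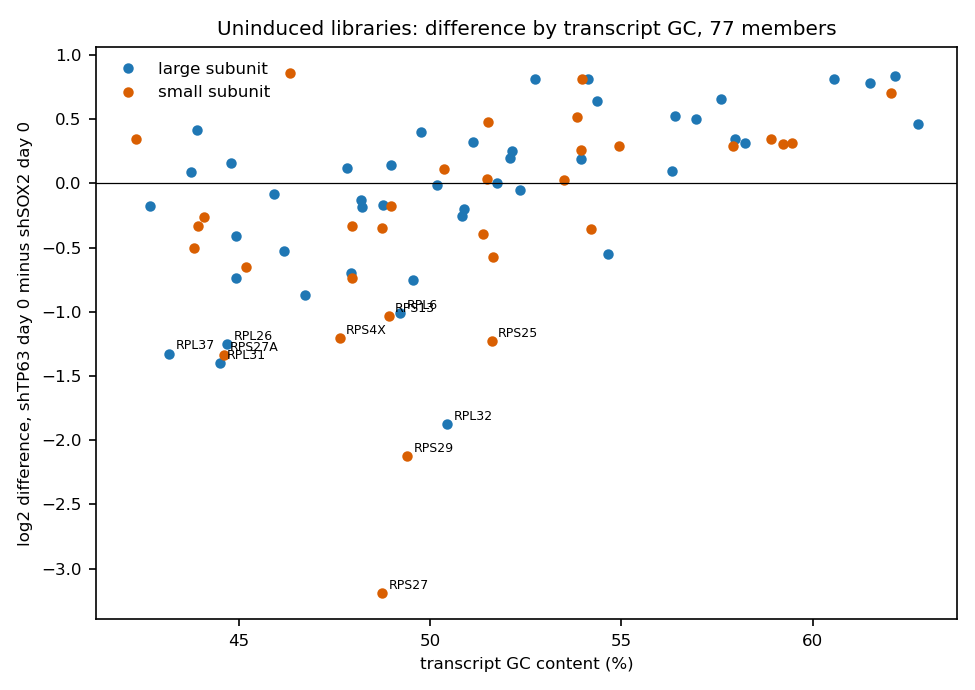
Difference in log2(RPKM + 1) of uninduced shTP63 minus uninduced shSOX2 (1 library each) against the GC content of the transcript, for 77 members coloured by subunit. Members at least 2-fold lower in uninduced shTP63 lie at a GC of 51.6% or less, and RPS27 is lowest at −3.19.

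In the plot of the uninduced libraries against GC, the other 35 members at a GC of up to 51.6% ran from −0.87 to 0.86, with a median of −0.18 and 23 of them below 0. The 31 members at a higher GC ran from −0.57 to 0.84, with a median of 0.32.

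Members with and without a C and T run at the start were set side by side as medians, with no test. The median log2 change was −0.08 for 41 members with a run and −0.13 for 21 without in the shSOX2 line, and 0.17 for each in the shTP63 line. It was 0.17 with a run and 0.33 without for induced shTP63 minus induced shSOX2, and 0.13 and 0.35 for the difference of the responses.

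Comparing the induced lines avoids the day 0 libraries and sets 2 libraries against 2. No member passed limma's adjusted test (0 of 77; background 0.759%), and 6 members had an unadjusted p under 0.05 (background 23%). The median difference, induced shTP63 minus induced shSOX2, was 0.33 for large-subunit and 0.22 for small-subunit members, against 0.05 for all genes. Both induced shTP63 libraries were above both induced shSOX2 libraries for 25 members (background 30.5%). They were below both for RPS21 alone, which is 1 of 77 (background 26.6%). Both induced shTP63 libraries were above the mean of induced shSOX2 for 42 members (background 42%) and below it for 4 (background 36%), and at least 2-fold above or below it for 0 (background 1.59% and 3.12%). The members' median difference was 0.47 for the induced shTP63 library numbered 1 and 0.08 for that numbered 2.

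RPL19 had the smallest adjusted p of the members. It had 10.03 and 10.03 in the induced shTP63 libraries, against 9.06 and 9.35 in the induced shSOX2 libraries, a difference of 0.82 ± 0.23 (SE; limma adjusted p = 0.115). The uninduced libraries already differed in the same way, with 10.09 in shTP63 and 9.28 in shSOX2. RPLP1 had 10.09 and 9.75 in induced shTP63, against 9.28 and 9.12 in induced shSOX2 (0.72), and 9.75 against 8.94 before induction. RPL13 had 7.33 and 7.07, against 6.51 and 6.36 (0.76), and 6.92 against 6.39 before induction. For these 3 abundant members the shTP63 line was higher both with and without doxycycline.

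RPL5 had the largest difference, with 6.02 and 5.31 in induced shTP63, against 3.93 and 5.41 in induced shSOX2 (1.00 ± 0.50, SE; limma adjusted p = 0.274). Its groups overlapped. RPS27L had 1.84 and 1.72 in induced shTP63, against 1.23 and 1.18 in induced shSOX2 (0.57 ± 0.23, SE; limma adjusted p = 0.195), and the groups did not overlap. Before induction RPS27L was also higher in shTP63, with 1.69 against 1.34 in shSOX2.

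RPL26, a protein near the mouth of the exit tunnel, had the lowest difference. It had 7.56 and 5.95 in the induced shTP63 libraries, against 7.77 and 7.56 in the induced shSOX2 libraries (−0.91 ± 0.49, SE; limma adjusted p = 0.298). RPS21 had 6.87 and 6.67, against 8.07 and 7.17 (−0.85), without overlap. RPSA, known also as the laminin receptor precursor, had 7.22 and 5.12, against 7.10 and 6.64 (−0.70). RPS15A had 2.44 and 1.89, against 2.97 and 2.36 (−0.50), and RPS27A, a fusion of ubiquitin with a ribosomal protein, had 6.40 and 5.58, against 6.87 and 6.10 (−0.50). For RPL26 and RPSA the lower induced shTP63 value was that of the library numbered 2. Before induction, shTP63 was already lower than shSOX2 for RPL26 (6.46 against 7.71) and RPS27A (5.41 against 6.75). It was also lower for RPSA (6.67 against 7.07), RPS21 (6.89 against 7.25) and RPS15A (2.33 against 2.66). Without the induced shTP63 library numbered 1, the difference was −1.72 for RPL26 and −1.75 for RPSA. Without the library numbered 2, RPSA had 0.35. Each of these values rests on 1 induced shTP63 library, so no test is given for it.

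The difference between the responses of the 2 lines was tested as an interaction. With limma 0 of 77 members passed, as did 0 of 10536 genes (background 0%), and 3 members had an unadjusted p under 0.05 (background 4.55%). The median, shTP63 response minus shSOX2 response, was 0.24 over the members, against 0.03 over all genes. With each induced shTP63 library taken in turn, the value was above 0 in both for 38 members (background 40.5%) and below 0 in both for 12 (background 35.4%). It was at least 2-fold above in both for 6, namely RPS27, RPL32, RPL5, RPL6, RPS26 and RPS13 (background 2.29%), and at least 2-fold below for 0 (background 2.75%). RPS27 had 2.92 ± 0.80 (SE; limma adjusted p = 0.995), RPS29 1.84, RPL32 1.72, RPL5 1.52, RPL37 1.46 and RPL31 1.42. RPL35 (−0.52), RPS21 (−0.49), RPL8 (−0.45) and RPLP2 (−0.36) had the lowest values on the same side in both libraries. Both induced shSOX2 libraries were below day 0 and both induced shTP63 libraries above it for 8 members (background 8.13%). The 2 values of a member share the same day 0 libraries and the same induced shSOX2 mean. Among the 6 members at least 2-fold above, uninduced shTP63 minus uninduced shSOX2 was −3.19 for RPS27, −1.87 for RPL32 and −1.03 for RPS13. It was −1.01 for RPL6, −0.74 for RPS26 and −0.53 for RPL5.

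Values in the 2 comparisons with the shTP63 response differed with the induced library that was left out. Without the induced shTP63 library numbered 2, the members' median was 0.36 in the shTP63 line and 0.49 in the difference of responses. Without that numbered 1, these medians were −0.06 and 0.00. RPS27 had 3.65 and 2.18 in the difference of responses for the induced shTP63 libraries numbered 1 and 2. With 1 induced shTP63 library left, the shTP63 line had no replicate check of its own, so no test is given. The uninduced shTP63 library enters both sets of values.

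Genes that work beside the ribosomal proteins are given for comparison, from lists of known roles. Ribosome biogenesis genes, which process ribosomal RNA and assemble the subunits, had a median log2 change of −0.74 in the shSOX2 line, with both induced libraries below day 0 for 58 of 62 (background 40.2%). In the shTP63 line the median was −0.69 and 55 of 62 were below day 0 (background 38.5%). The ribosomal proteins had −0.09 and 0.11, with 29 and 16 of 77 below day 0 in both libraries. Mitochondrial ribosomal proteins had a median of −0.48, with 59 of 73 below, in the shSOX2 line and −0.28, with 51 of 73 below, in the shTP63 line. Of these 2 lists, 0 genes passed limma's adjusted test in either line, and an unadjusted p under 0.05 was found for 22 of 62 biogenesis genes and 11 of 73 mitochondrial ones in the shSOX2 line (background 10.4%) and for 19 of 62 and 5 of 73 in the shTP63 line (background 14.6%).

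Among biogenesis genes, the nucleolar helicase DDX21 (−1.40) and FTSJ3 (−1.34) had the lowest values in the shSOX2 line and LSG1 (−0.15) and POLR1D (0.31) the highest. In the shTP63 line EBNA1BP2 (−1.65) and NHP2 (−1.43) had the lowest and POLR1D (0.37) and NOP10 (0.89) the highest. Among mitochondrial ribosomal proteins, MRPL16 (−1.29), MRPS11 (−1.24), MRPS14 (0.19) and MRPL24 (0.33) bounded the shSOX2 line. MRPL18 (−1.35), MRPL17 (−1.19), MRPL41 (0.50) and MRPS14 (0.65) bounded the shTP63 line.

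**Figure D5:**
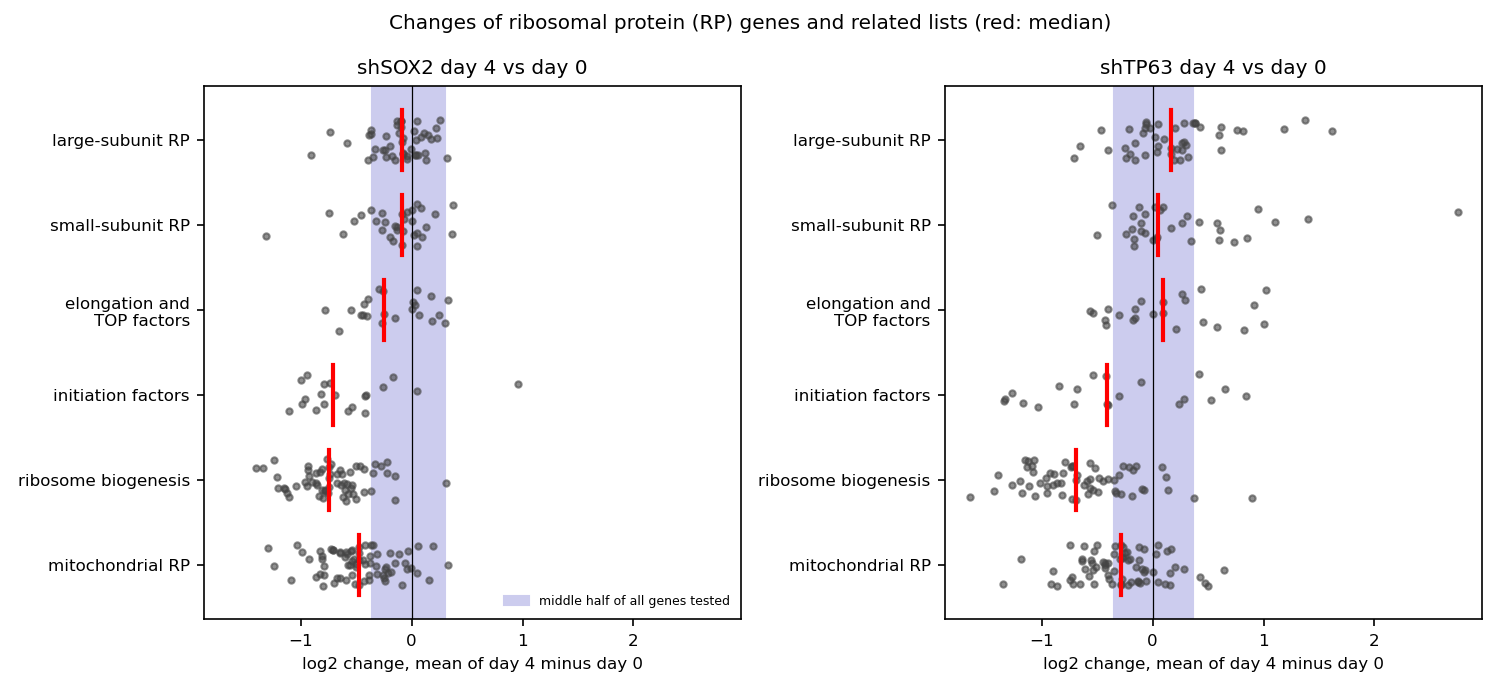
log2 change (mean of 2 induced libraries minus 1 day 0 library) of each gene in 6 lists, for the shSOX2 line (left) and the shTP63 line (right); red bars are medians and the shaded band spans the 25th to 75th percentile of all tested genes. Both subunits centre within the band, and ribosome biogenesis has medians of −0.74 and −0.69.

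Translation genes are shown as 2 lists in the plot of lists. The 20 genes of the cap-dependent initiation and eIF2 list had a median of −0.71 in the shSOX2 line and −0.41 in the shTP63 line. Of these, 18 and 14 were below day 0 in both libraries (background 40.2% and 38.5%). EIF4EBP1 and EIF4EBP2, which encode eIF4E-binding proteins (4E-BP), are in this list beside initiation factors. The elongation and TOP list holds elongation factors, subunits of the initiation factor EIF3, EIF4B, EIF4A2 and other genes. It was drawn up from known roles, and TOP runs in its genes were not counted here. Its 23 tested genes had medians of −0.25 and 0.09. Of these, 13 (56.5%) and 8 (34.8%) were below day 0 in both libraries, against the same backgrounds. With limma, 0 genes of either list passed. EIF4A1 (−1.10), EIF4G2 (−0.999), EIF4G3 (0.05) and EIF4EBP1 (0.96) bounded the initiation list in the shSOX2 line, and EIF5A (−1.34), EIF1AX (−1.33), EIF4G3 (0.65) and EIF4EBP2 (0.84) in the shTP63 line. EIF3I (−0.78), EIF3G (−0.66), EEF1A1 (0.30) and TPT1 (0.33) bounded the elongation and TOP list in the shSOX2 line, and EIF3G (−0.56), EEF1B2 (−0.54), EIF4A2 (1.00) and EIF3L (1.02) in the shTP63 line.

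Paralogs of ribosomal proteins stood on both sides of their partners. RPL39L had a mean level of 3.00, against 2.82 for RPL39, while RPL26L1 had 4.06, against 7.17 for RPL26. RPL36AL had 6.00, against 0.28 for RPL36A. RPL3L, RPL10L and RPL22L1, paralogs of muscle, germ cells and other tissues, did not reach a mean of 1 RPKM. In the shSOX2 line RPL7L1 (−0.78), RPL26L1 (−0.63), RPS27L (−0.13) and RPL39L (0.74) bounded the 5 tested paralogs, and in the shTP63 line RPL39L (−0.71), RPL36AL (0.07), RPL7L1 (0.15) and RPL26L1 (0.33). The median of the 5 was −0.39 and 0.09.

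The ubiquitin-like genes include RPS27A and FAU, which encode a ribosomal protein fused to ubiquitin or a relative of it, and UBB, which encodes ubiquitin alone. The median of the 5 tested was −0.26 in the shSOX2 line and 0.31 in the shTP63 line. UBB (−0.19) and FAU (−0.06) had the highest values in the shSOX2 line, where FAU had 0.0044 after median-ratio scaling. In the shTP63 line UBB (−0.30) and FAU (−0.27) had the lowest, and RPS27A had 0.58. Against the uninduced shSOX2 library the sign of UBB, FAU and RPS27A turned in the shTP63 line. RPS27A had 6.87 and 6.10 in the induced shSOX2 libraries, against 6.75 in the uninduced one, and 6.40 and 5.58 in the induced shTP63 libraries, against 5.41 in the uninduced one. With limma, 0 of the 5 paralogs and 0 of the 5 fusion and ubiquitin genes passed in either line.

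Host genes of small nucleolar RNAs, many of which carry TOP motifs, had a median of −0.15 in the shSOX2 line and −0.38 in the shTP63 line (11 tested of 16 listed). SNHG12 (−0.86), SNHG3 (−0.58), SNHG11 (0.12) and GAS5 (0.40) bounded the shSOX2 line, and SNHG1 (−1.31), SNHG9 (−1.17), EPB41L4A-AS1 (0.08) and GAS5 (1.41) the shTP63 line. All 11 were lower in both induced shTP63 libraries than the mean of induced shSOX2 (background 36%), with a median difference of −0.61, where the ribosomal proteins had 0.28. Before induction 9 of the 11 were already lower in the uninduced shTP63 library than in the uninduced shSOX2 one (background 49%), by a median of −0.40 over the 11, and the difference of the responses had a median of −0.04. Against the uninduced shSOX2 library the shTP63 change of GAS5 was −0.73. With limma 0 host genes passed in any of these comparisons.

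Regulators in the mTORC1, LARP1 and MYC list had a median of −0.08 in the shSOX2 line and −0.03 in the shTP63 line (23 tested), and 0 passed. LARP4 (−0.90), MTOR (−0.80), SESN2 (1.33), which is also in the p53 and stress lists, and DDIT4 (1.82), an inhibitor of mTORC1, bounded the shSOX2 line, and MYC (−0.98), LARP4 (−0.51), MXD4 (1.75) and PDCD4 (1.92) the shTP63 line. In the p53 list, the medians were 0.54 and 0.09 (14 tested). BAX (−0.33), MDM2 (−0.27), TNFRSF10B (1.04) and SESN2 (1.33) bounded the shSOX2 line, and GDF15 (−1.07), BAX (−0.75), ZMAT3 (0.55) and CDKN1A (1.47) the shTP63 line. CDKN1A, a cell cycle inhibitor, was the only gene of these lists called, at 5.67 and 5.73 in induced shTP63 libraries, against 3.74 and 3.22 in induced shSOX2 libraries (2.22 ± 0.30, SE; limma adjusted p = 0.0392). RPS27L, a p53 target among the members, did not pass in that comparison. Before induction CDKN1A stood at 4.24 in shTP63 and 3.32 in shSOX2, so the shTP63 line was already higher. The 10 tested genes of the integrated stress response and 4E-BP list had medians of 0.75 and −0.29, with 0 called.

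Outside the members, the 5 tested genes whose values over the 6 libraries correlated most with the members' median were DBI (Pearson 0.98), DYRK1A (0.95), CPNE3 (0.95), TLE4 (0.95) and MKS1 (0.95). They were picked out of 10536 genes for this likeness, so the values describe the pattern only. DBI, an acyl-CoA-binding protein, had 4.63 and 3.49 in the induced shTP63 libraries, against 3.22 in the uninduced one, and 3.87 and 3.06 in the induced shSOX2 libraries, against 4.14 in the uninduced one. Like the members' median, it was higher in the library numbered 1 of each induced pair.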

How the data were processed

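The deposited table named RPKM held log2 values, read from the values themselves: all 6 libraries shared a highest value of 13.36, and 82.9% of the values above 0 were multiples of 1/7000 within 0.01 of a step, so the authors' log2(RPKM + 1) values were taken as quantile-normalized between libraries. Base 2 was taken because RPKM times transcript length then gave a summed RPM of 188644 to 202602 over 17508 genes, whereas natural logs gave 1178054 to 1538472, more than the RPM of a whole library can be. Per the submitters' processing notes the reads were placed on hg19, and no source used here gives an aligner, a counter or an annotation. Libraries were polyA-selected and randomly primed, and no strand-specific step is stated, per the labels' protocols, so antisense partners may share reads. Values were tested as deposited, without a further log, where RPKM had been planned for.

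A linear model with 4 group means was fitted to the 6 libraries with limma 3.58.1 (R 4.3.3), allowing a trend of variance with mean. It had 2 residual and 5.53 prior degrees of freedom and covered 10536 genes with a mean of at least 1 RPKM. Each day 0 group has 1 library, which is assumed to vary like the day 4 pairs. P-values are two-sided with Benjamini-Hochberg adjustment, with a call under 0.05. The fit was tested on simulated data.

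The members and lists were chosen with earlier results of these data known. Members named are, in each comparison, the 4 highest and 4 lowest on the same side in both day 4 libraries, those over 3 scaled median absolute deviations from their subunit's median, the 3 highest and 3 lowest in level, RPS27 with RPS27L, and any that failed the filter; of each related list, the 2 highest and 2 lowest per line and any called; and the 5 genes most like the members' median. RPL10, RPL11, RPS18, RPL21, RPL39, RPL31 in the shTP63 line, the pseudogenes with their parents and the members low in uninduced shTP63 were named after their values were seen. A few genes that the rule names are not reported here. Sequences are RefSeq's on GRCh38.p14 (63 of 78 members matched). The alternatives were other filters, a pseudocount of 5, median-ratio scaling, other controls, fewer libraries, a replicate block, no trend and GC adjustment (a value for 77 members and 8444 genes).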

Additional observations from a re-analysis of the deposited data

How the results depend on the processing

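With 2 libraries at most in a group, and read depth unknown, differences smaller than the spread between the induced libraries could not be resolved. Under every alternative run except those that left out 1 induced library, 0 members were called in any comparison. With 1 induced library left in a line, its spread is taken from the other line's pair, so members called in those runs are not listed. Leaving out 1 induced library at a time, the members' median change ran from −0.23 to 0.06 in the shSOX2 line and from −0.06 to 0.36 in the shTP63 line. It ran from 0.08 to 0.47 between the induced lines and from 0.00 to 0.49 in the difference. The cause was not tested.

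Same-numbered day 4 libraries deviated with a correlation of −0.07 over all genes and −0.23 over the members between the lines. The main fit did not pair the libraries by number. A correlation over genes cannot see a shift that most members share. In both lines most members were higher in the library numbered 1 (69 and 67 of 77, by medians of 0.26 and 0.48). These correlations therefore do not settle whether the numbers pair the libraries for the members. With the replicate number as a block, the median change of the members was −0.30 in the shSOX2 line and −0.02 in the shTP63 line, and RPL36AL had −0.033 in the shTP63 line. The block gave 0 members called in each comparison, and 0 of 10536 genes in the shTP63 line and 18 between the induced lines, against 2 and 80 without it.

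Over all genes, calls in the shSOX2 line were 0 as reported and 0 to 11 otherwise. In the shTP63 line they were 2 as reported, 1 with the filter at 5 RPKM, 154 with no filter, 291 against both day 0 libraries, 49 against that of the other line, 3 with a pseudocount of 5 or after GC adjustment, 0 with only the libraries compared, and 0 to 80 leaving out 1 library. Between the induced lines they were 80 as reported, 44 with the filter at 5 RPKM, 0 with no filter, 30 with a pseudocount of 5, and 0 to 324 leaving out 1 library. In the difference they were 0, and 5 without induced shTP63 replicate 2. The large minus small median in the induced shSOX2 library numbered 2 was −0.24 with the filter at 5 RPKM.

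Of 1416 alternative values for 106 named results, 1359 kept their side of 0 and of the threshold, 8 newly passed, 4 no longer passed and 45 changed sign. With the other line's uninduced library as control, an alternative chosen after seeing the data, the shSOX2 line had EIF4EBP1 at −0.17, LSG1 at 0.81, RPL13A at −0.32, RPL39L at −0.15, RPL6 at 0.27, RPLP1 at −0.55, RPS29 at 1.38, SNHG12 at 0.66, SNHG3 at 1.21 and TPT1 at −0.53. The shTP63 line had EPB41L4A-AS1 at −0.13, FAU at 0.087, GAS5 at −0.73, NOP10 at −0.70, RPL26L1 at −0.078, RPL31 at −0.21, RPL32 at −0.25, RPL35 at 0.0061, RPL39L at 0.19, RPL7L1 at −0.29, RPL8 at 0.43, RPLP2 at 0.34, RPS27 at −0.44, RPS27A at −0.76, RPS29 at −1.03 and UBB at 0.29. Against both day 0 libraries, LSG1 had 0.33, RPL13A −0.0038, RPLP1 −0.15, RPS29 0.32, SNHG3 0.32 and TPT1 −0.10 in the shSOX2 line, and EPB41L4A-AS1 −0.026, RPL7L1 −0.071, RPL8 0.013 and RPS27A −0.092 in the shTP63 line. Median-ratio scaling gave FAU 0.0044 in the shSOX2 line. Leaving out 1 induced library moved SNHG11 between −0.19 and 0.43, EIF4G3 between −0.20 and 0.30 and LSG1 between −0.54 and 0.24 in the shSOX2 line, and RPL36AL between −0.11 and 0.24, RPL7L1 between −0.017 and 0.32 and RPS29 between −0.33 and 2.53 in the shTP63 line. Between the induced lines it moved RPSA between −1.75 and 0.35.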
